A study of Mus musculus with 16 samples.

Results

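A set of 9 genes tied to resting T cells, the transcription factors Foxo1, Klf2, Tcf7, Lef1 and Bach2, the interleukin-7 receptor gene Il7r, and Pik3ip1, Klhl24 and Sesn1, were followed in mouse regulatory T cells (Treg cells) that lacked the autophagy gene Atg7 or kept 1 copy of it, with and without the mTOR inhibitor rapamycin. The 9 symbols were chosen from results of these same arrays, with their group differences already known, so the levels, differences and counts of these genes are a description and support nothing by themselves. Of the 9 listed genes, 8 had a probe set with a single gene symbol in the platform annotation, against 22180 genes in all, and all 8 passed the filter on dim genes, against 16760. Tcf7 had no such probe set and has no value here. Only for Klhl24 and Bach2 did all arrays from rapamycin-treated mice lie above the untreated arrays of the same genotype in both genotypes. Klhl24 was higher by 1.34 and 1.80 on the log2 scale and Bach2 by 0.63 and 0.71, in Atg7+/- and Atg7-/- cells. Il7r was also higher in both at an adjusted p under 0.05 in limma, by 0.55 and 0.96, less firmly in Atg7+/- cells. Mean signals were lowest in untreated Atg7-/- cells for every measured gene but Foxo1. Of these differences between untreated genotypes, only that of Klhl24 had an adjusted p under 0.05.

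RNA was hybridised to 16 expression arrays, 4 for each of 4 groups. All mice were C57BL/6 with a Cre recombinase driven by Foxp3, the gene of the Treg lineage factor, which directs the deletion to Treg cells. Atg7+/- mice carried 1 floxed allele of Atg7 (Atg7+/fl Foxp3-Cre) and served as controls, with 1 copy of Atg7 left, and Atg7-/- mice carried floxed alleles only (Atg7fl/fl Foxp3-Cre). Each genotype was left untreated or was given rapamycin intraperitoneally at 4 mg per kg of body weight on each of 5 days. CD4+ cells with the Foxp3-YFP reporter were then sorted from spleen and from inguinal, axillary and cervical lymph nodes, and all groups were stimulated for 4 h on plates coated with antibodies to CD3 and CD28 before RNA was taken. The levels below are thus those of recently activated cells, not of resting ones. No age of the mice was given. The labels number the arrays of a group without saying whether each is a separate mouse, so the spread between them may be technical in part.

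Resting T cells are held out of growth and division by an active programme. Foxo transcription factors sit in the nucleus while signalling from PI3 kinase and Akt is weak, and there they activate genes such as Klf2 and Il7r. When the T cell receptor fires, Akt phosphorylates Foxo proteins, which leave the nucleus, and mTOR complex 1 drives growth. In Treg cells Foxo1 is known for its role in lineage function, Bach2 for restraining effector differentiation, and Tcf7 and Lef1, which encode related factors of the Wnt pathway, for marking less differentiated cells. Autophagy, which needs the enzyme Atg7, degrades cell components, and mTOR complex 1 represses it.

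Sequences around start sites were searched for the Foxo core motif GTAAACA and for CACCC, the core of sites bound by Klf proteins, on both strands. The windows ran from 250 bases before to 50 after each start, as RefSeq gives them for build GRCm38.p6. Of the 9 genes, 8 had an entry, 13 start sites in all, and Klhl24 had none. GTAAACA or its reverse complement TGTTTAC was found at 2 of the 13, against 3.65% of 32851 mouse windows. One lies in a Tcf7 window and the other in a Sesn1 window, where it begins at base 23 after the annotated start. The 30 bases around that match, at chr10:41810585-41810614 on the plus strand, are shown because Sesn1 is the only measured gene of the set with a match, which stands in capitals.
Sesn1: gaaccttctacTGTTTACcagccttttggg
CACCC or its reverse complement GGGTG was found at 10 of the 13, against 57.5% of all windows. All 4 Lef1 windows are among the 10, and the first 2 of them overlap, so some matches are counted more than once. The 250 bases before the start of Klf2, at chr8:72318812-72319061, and before the first start of Lef1, at chr3:131110047-131110296, are shown as those of the Klf gene itself and of a gene called higher with rapamycin in Atg7-/- cells, a choice made after the search. Both are on the plus strand, and matches are in capitals.
Klf2: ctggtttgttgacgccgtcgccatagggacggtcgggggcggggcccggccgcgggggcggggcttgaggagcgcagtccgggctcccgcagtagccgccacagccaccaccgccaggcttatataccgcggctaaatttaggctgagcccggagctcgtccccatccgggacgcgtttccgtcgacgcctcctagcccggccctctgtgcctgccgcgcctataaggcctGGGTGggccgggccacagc
Lef1: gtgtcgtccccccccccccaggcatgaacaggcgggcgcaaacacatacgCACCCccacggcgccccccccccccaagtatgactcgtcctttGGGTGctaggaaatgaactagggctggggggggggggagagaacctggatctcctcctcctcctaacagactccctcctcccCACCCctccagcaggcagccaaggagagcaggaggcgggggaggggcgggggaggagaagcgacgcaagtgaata
The Klf2 stretch holds 1 match, as GGGTG, and the Lef1 stretch holds 3. These are matches of letters, and no binding was measured here.

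Values are log2 signals, so a difference of 1 is a doubling, and a gene was called different where its adjusted p across all 16760 genes, from limma with Benjamini-Hochberg adjustment, was under 0.05. Signals of different genes rest on different probes and are not set against each other. One array stood apart, the third of Atg7-/- cells with rapamycin, with a score of -29.83 on principal component 2, where the rest of its group scored -12.88 to -7.57. Array medians ran from 4.41 to 4.63. Foxp3 was the check of the sort, and its group means ran from 10.86 to 11.34. It was lower by 0.40 in untreated Atg7-/- cells than in Atg7+/- cells (adjusted p = 0.0355). Atg7 itself was lower in Atg7-/- cells by 0.28 without and by 0.30 with rapamycin, and neither difference was called (limma adjusted p = 0.299 and 0.232). Where its probes lie relative to the floxed exon is not known here, so this checks nothing about the deletion. All of these are bulk signals, in which fewer cells of a kind and less RNA per cell cannot be told apart.

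**Figure D1:**
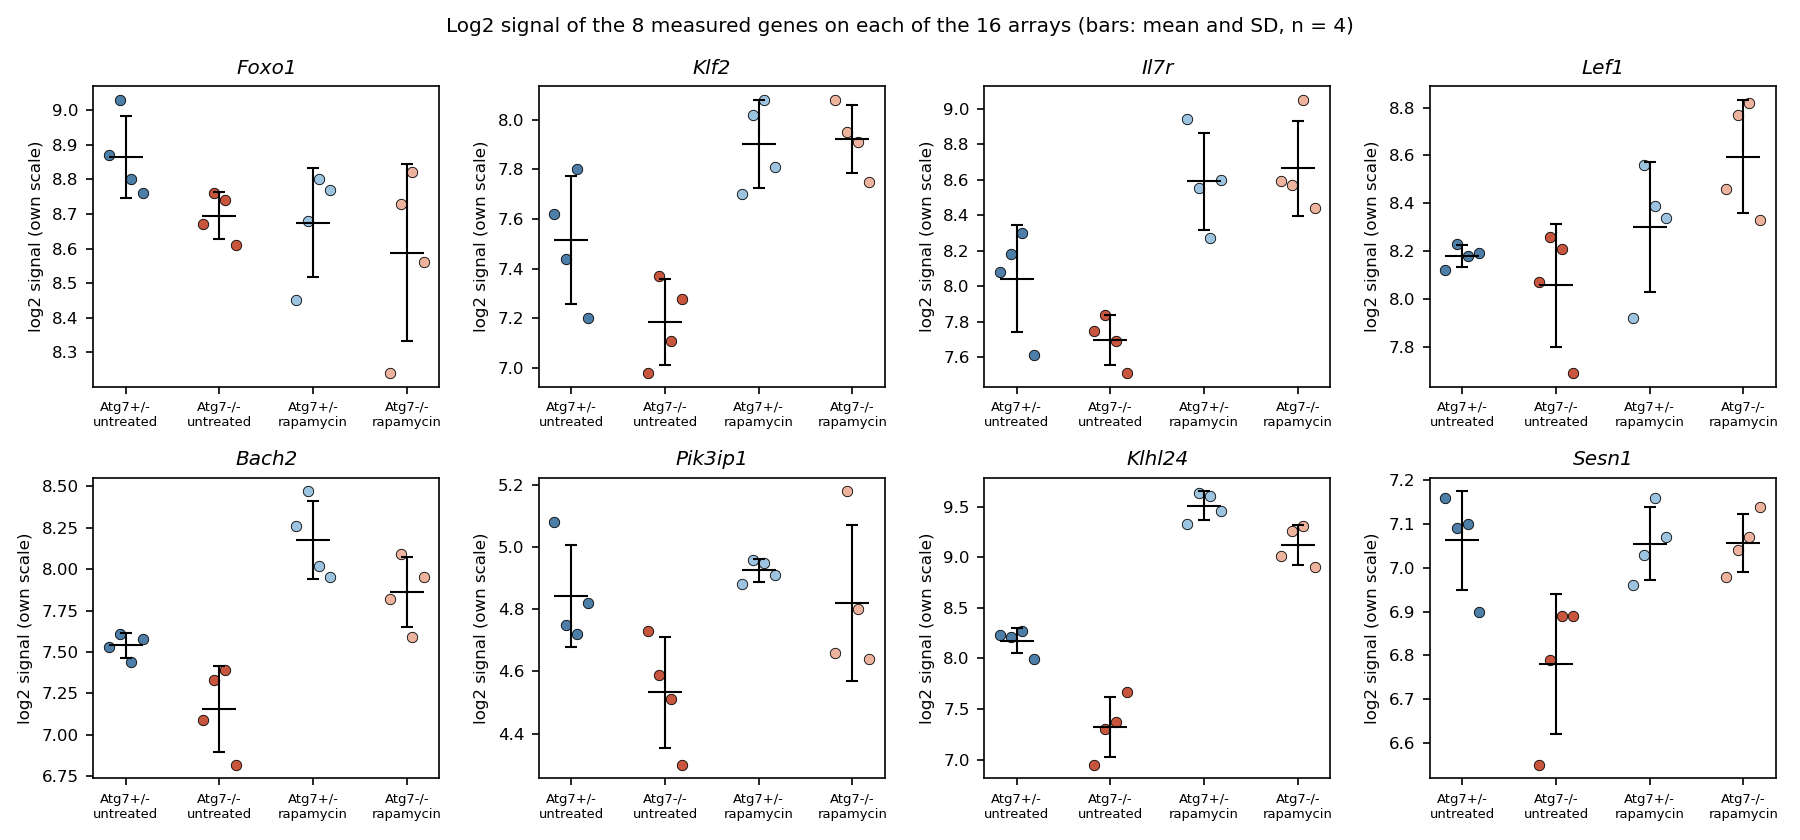
Log2 signal of the 8 measured genes on each array, by group, each panel on its own axis; horizontal and vertical bars give the mean and SD of 4 arrays. Klhl24 separates all 4 groups, Sesn1 sets untreated Atg7-/- arrays below the other groups, and Foxo1 shows little separation.

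Foxo1, which encodes the main Foxo factor of T cells (chromosome 3, 52268337 to 52350109), differed little between groups. Its signals were 8.87, 9.03, 8.80 and 8.76 in untreated Atg7+/- arrays and 8.67, 8.76, 8.74 and 8.61 in untreated Atg7-/- arrays. With rapamycin they were 8.45, 8.68, 8.80 and 8.77 in Atg7+/- cells and 8.24, 8.73, 8.82 and 8.56 in Atg7-/- cells. The untreated groups just missed each other, since the lowest Atg7+/- array and the highest Atg7-/- array agree to 2 decimals, and the other neighbouring groups overlapped. Without rapamycin the Atg7-/- mean was lower by 0.17 (95% interval -0.41 to 0.07), and the rapamycin differences were -0.19 in Atg7+/- and -0.11 in Atg7-/- cells. No Foxo1 difference was called. A second, dimmer Foxo1 probe set gave differences of -0.22 between the untreated genotypes, -0.09 for rapamycin with 1 copy of Atg7 and 0.17 for rapamycin without Atg7, so the 2 probe sets disagree in sign for the last of these. Foxo activity is set largely by phosphorylation and location of the protein, which an RNA array does not measure.

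Klf2 (chromosome 8, 72319062 to 72321654) encodes a zinc-finger factor that keeps receptors for exit into blood and lymph on resting T cells. It read 7.62, 7.44, 7.80 and 7.20 in untreated Atg7+/- arrays and 6.98, 7.37, 7.11 and 7.28 in untreated Atg7-/- arrays. In cells from rapamycin-treated mice it read 7.70, 8.02, 8.08 and 7.81 with 1 copy of Atg7 and 8.08, 7.95, 7.91 and 7.75 without Atg7. Every rapamycin array of Atg7-/- cells was above every untreated one, whereas in Atg7+/- cells the groups overlapped. The rapamycin difference was 0.74 (standard error 0.13, a 1.67-fold change) in Atg7-/- cells, which was called, and 0.39 (standard error 0.13) in Atg7+/- cells, which was not. The genotypes differed by -0.33 without rapamycin (95% interval -0.60 to -0.06), uncalled, and by 0.02 with it. The Atg7+/- rapamycin difference lay near the threshold, and it was called in 6 of 25 alternative analyses, for example at 0.48 without the third untreated Atg7+/- array and at 0.45 without the first Atg7+/- rapamycin array.

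Il7r (chromosome 15, 9506159 to 9529941) encodes the alpha chain of the interleukin-7 receptor, which conveys survival signals and falls on activation. Untreated Atg7+/- arrays gave 8.08, 8.18, 8.30 and 7.61, and untreated Atg7-/- arrays gave 7.75, 7.84, 7.69 and 7.51. After rapamycin the signals were 8.94, 8.55, 8.27 and 8.60 in Atg7+/- cells and 8.59, 8.57, 9.05 and 8.44 in Atg7-/- cells. All 4 Atg7-/- rapamycin arrays lay above all 8 untreated arrays. Rapamycin went with a higher Il7r signal by 0.96 (standard error 0.16, 1.95-fold) in Atg7-/- cells and by 0.55 (standard error 0.16, 1.46-fold) in Atg7+/- cells, and both were called. The Atg7+/- call was lost when each array was centred on its median (0.50), and also without untreated array 1 (0.56) or 4 (0.40) or rapamycin array 1 (0.43), 2 (0.56) or 4 (0.54) of that genotype. Between genotypes the difference was -0.35 without rapamycin, uncalled, and 0.07 with it.

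Lef1 (chromosome 3, 131110297 to 131224357) encodes a partner of beta-catenin and a marker of naive T cells. It was tight in untreated Atg7+/- arrays, at 8.12, 8.23, 8.18 and 8.19, and wider in untreated Atg7-/- arrays, at 8.07, 8.26, 8.21 and 7.69. Rapamycin arrays read 7.92, 8.56, 8.39 and 8.34 in Atg7+/- cells and 8.46, 8.77, 8.82 and 8.33 in Atg7-/- cells. The Atg7-/- rapamycin arrays were the highest group, above every untreated array, and they overlapped the Atg7+/- rapamycin arrays. In Atg7-/- cells the rapamycin difference was 0.54 (standard error 0.14, 1.45-fold) and called, and it was 0.41 and not called without the fourth untreated array of that genotype, which was the lowest of all. In Atg7+/- cells it was 0.12 (95% interval -0.18 to 0.42). Tcf7, its close relative, could not be set beside it.

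Bach2 (chromosome 4, 32238413 to 32586109) encodes a repressor that competes with AP-1 factors at effector genes. Untreated signals were 7.53, 7.61, 7.44 and 7.58 with 1 copy of Atg7 and 7.09, 7.33, 7.39 and 6.82 without it, and the 2 groups did not overlap. Rapamycin signals were 8.26, 8.47, 8.02 and 7.95 in Atg7+/- cells and 7.82, 8.09, 7.59 and 7.95 in Atg7-/- cells. In each genotype all rapamycin arrays lay above all untreated arrays. The rapamycin differences were 0.63 and 0.71 in Atg7+/- and Atg7-/- cells (standard error 0.14 each, 1.55-fold and 1.63-fold), both called in all 25 alternatives. Between genotypes the Bach2 difference was -0.38 without rapamycin (95% interval -0.67 to -0.09) and -0.31 with it, and neither was called.

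Among the genes that act on growth signalling, Pik3ip1 (chromosome 11, 3319241 to 3342971) encodes a membrane inhibitor of PI3 kinase. It was dim, with group means of 4.53 to 4.92 where the filter on dim genes stood at 3.549, and its lowest group was again untreated Atg7-/-. The arrays gave 5.08, 4.75, 4.72 and 4.82 in untreated Atg7+/- cells and 4.73, 4.59, 4.51 and 4.30 in untreated Atg7-/- cells. With rapamycin they gave 4.88, 4.96, 4.95 and 4.91 in Atg7+/- and 4.66, 5.18, 4.80 and 4.64 in Atg7-/- cells. No neighbouring groups were apart and no difference was called. The largest differences were -0.31 between untreated genotypes (95% interval -0.56 to -0.05) and 0.29 for rapamycin in Atg7-/- cells (0.03 to 0.54).

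Klhl24 (chromosome 16, 20097553 to 20129226) encodes a substrate adaptor of cullin 3 ubiquitin ligases. It was 8.23, 8.21, 8.27 and 7.99 in untreated Atg7+/- arrays and 6.95, 7.30, 7.37 and 7.67 in untreated Atg7-/- arrays. After rapamycin it was 9.33, 9.64, 9.61 and 9.46 in Atg7+/- and 9.01, 9.26, 9.31 and 8.90 in Atg7-/- cells. No 2 of the 4 groups overlapped, in the order untreated Atg7-/-, untreated Atg7+/-, rapamycin Atg7-/- and rapamycin Atg7+/-. The Atg7-/- mean was lower by 0.85 (standard error 0.13, 1.81-fold) without rapamycin, which was called, and by 0.39 with rapamycin, which was not. Rapamycin differences were 1.34 (2.52-fold) in Atg7+/- and 1.80 (3.47-fold) in Atg7-/- cells, with a standard error of 0.13 each. These 3 calls held in all 25 alternatives.

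Sesn1 (chromosome 10, 41810574 to 41908436) encodes sestrin 1, a stress-induced protein that restrains mTOR complex 1 through the GATOR complexes. Its signals were 7.16, 7.09, 7.10 and 6.90 in untreated Atg7+/- arrays and 6.55, 6.79, 6.89 and 6.89 in untreated Atg7-/- arrays. With rapamycin they were 6.96, 7.03, 7.16 and 7.07 in Atg7+/- and 6.98, 7.04, 7.07 and 7.14 in Atg7-/- cells. The untreated Atg7-/- arrays lay below all other arrays, and the other 3 group means were 7.06 each. Sesn1 was higher with rapamycin by 0.28 (standard error 0.09, 1.21-fold) in Atg7-/- cells, which was called, and the difference was -0.00 in Atg7+/- cells (95% interval -0.19 to 0.19). That call was fragile. It was lost when each array was centred on its median (0.29), when only the compared groups were fitted (0.28), and without untreated array 1 (0.20) or 2 (0.28) or rapamycin array 2 (0.28), 3 (0.27) or 4 (0.25) of Atg7-/- cells.

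**Figure D2:**
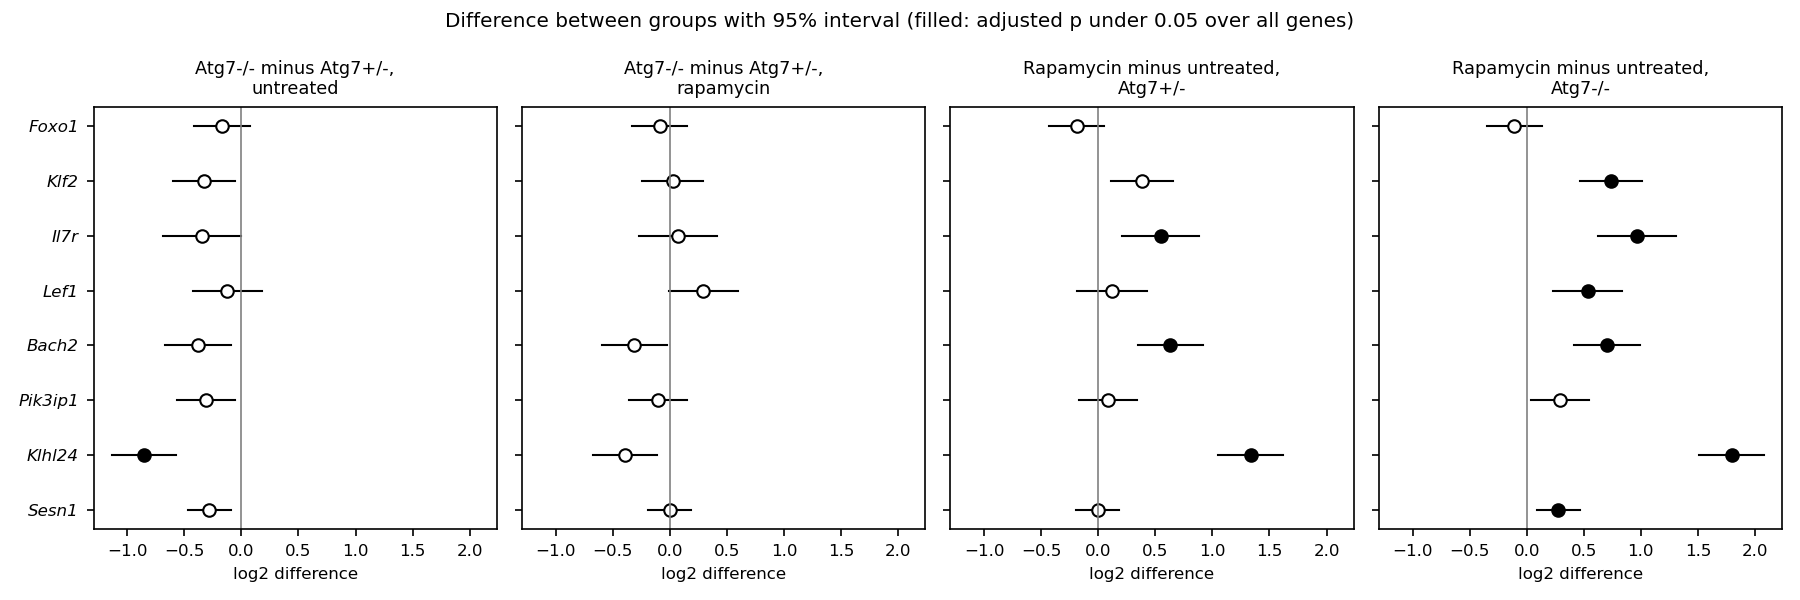
Log2 differences of the 8 genes in the 4 comparisons of groups, as points with 95% intervals; filled points were called at an adjusted p under 0.05 over all genes. Without rapamycin all 8 points lie below 0 and 1 is filled, and for rapamycin in Atg7-/- cells 6 of 8 are filled, all above 0.

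Side by side, the 8 genes were all lower in untreated Atg7-/- than in untreated Atg7+/- cells, by 0.12 for Lef1 to 0.85 for Klhl24, with a median difference of -0.32 against 0.02 over all genes. Only Klhl24 of the 8 was called lower, against 1.39% of all genes called lower and 3.14% called in either direction. The groups did not overlap for 4 of the 8 (Foxo1, Bach2, Klhl24 and Sesn1), against 14.1% of all genes. The same 2 genotypes after rapamycin gave a median of -0.05 against 0.02 over all genes. None of the 8 was called there, against 3.24% of all genes. In limma 2 of 8 had an unadjusted p under 0.05, against 18.3% of all genes. Klhl24 alone did not overlap, against 9.77%. The members were picked with these values in view, and nothing is read from the counts.

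For rapamycin, 3 of the 8 (Il7r, Bach2 and Klhl24) were called higher in Atg7+/- cells, against 6.03% of all genes called higher and 14.1% in either direction. In Atg7-/- cells 6 of the 8 were called higher (these 3 with Klf2, Lef1 and Sesn1), against 8.83% called higher and 20% in either direction. None was called lower in either genotype. Median differences were 0.25 and 0.62, against -0.03 and -0.04 over all genes. Groups did not overlap for 2 of 8 (Bach2 and Klhl24) in Atg7+/- cells, against 22.7% of all genes, and for 6 of 8 in Atg7-/- cells, against 20.4%. Without the Atg7-/- rapamycin array that stood apart, 5 of the 8 were still called higher in Atg7-/- cells, with Klf2 at 0.74, Il7r at 0.83, Lef1 at 0.46, Bach2 at 0.80 and Klhl24 at 1.73, and Sesn1 at 0.27 was not. The untreated Atg7-/- arrays enter the untreated genotype comparison and the Atg7-/- rapamycin comparison with opposite signs, so the lower values in one and the higher values in the other are not separate observations.

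Whether rapamycin acted differently in the 2 genotypes was tested as the difference of its effects. That difference was above 0 for all 8 genes, from 0.07 for Bach2 and 0.08 for Foxo1 to 0.42 for Il7r and Lef1 and 0.46 for Klhl24 (95% interval 0.06 to 0.86), with a median of 0.32 against 0.00 over all genes. None of the 8 was called (2 of 8, Klhl24 and Sesn1, at an unadjusted p under 0.05 in limma), nor was any of the 16760 genes (0%; 1052 at an unadjusted p under 0.05, or 6.28%). The calls in Atg7-/- but not in Atg7+/- cells for Klf2, Lef1 and Sesn1 therefore do not show a difference between genotypes. Against untreated Atg7+/- cells, Atg7-/- cells with rapamycin were higher by 0.94 for Klhl24, 0.62 for Il7r and 0.41 for Lef1, with no overlap of arrays. They were 0.41 and 0.32 higher for Klf2 and Bach2, and the differences were -0.28 for Foxo1, -0.02 for Pik3ip1 and -0.01 for Sesn1, all with overlapping arrays.

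**Figure D3:**
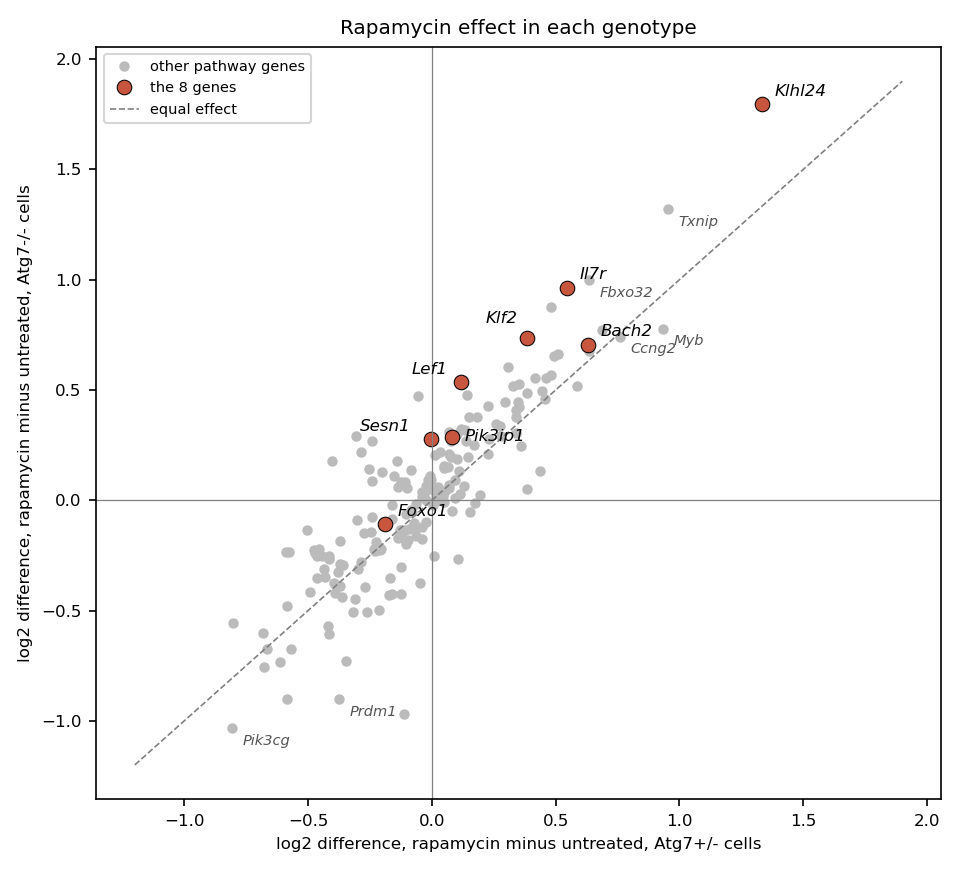
Rapamycin minus untreated log2 difference of each gene in Atg7+/- cells (horizontal axis) and Atg7-/- cells (vertical axis), for the 8 genes and for 180 genes of 10 related pathway lists in grey; the dashed line marks equal effects. Klhl24 lies farthest along both axes of all points, at 1.34 and 1.80, and all 8 genes lie above the dashed line.

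The surrounding pathways were followed through 10 lists of 195 other genes, chosen by role with earlier results of these data known, of which 180 were tested. Named below are, by a set rule, the called genes of largest difference in each list. Of 76 such calls over the 4 comparisons 47 held in all alternatives, and genes are given from those unless a change of call is stated. Without rapamycin, 4 of the 180 rose and 8 fell in Atg7-/- cells. With it, 4 rose and 7 fell, but none of the 9 named calls of that comparison held in every alternative. Rapamycin went with 19 higher and 25 lower genes in Atg7+/- cells and with 30 higher and 29 lower in Atg7-/- cells. Of all genes, 3.14% and 3.24% were called between genotypes without and with rapamycin. For rapamycin the shares were 14.1% in Atg7+/- and 20% in Atg7-/- cells. The list counts below are to be read beside these shares. The difference of the rapamycin effects was called for none of the 180 (limma, 9 at an unadjusted p under 0.05, against 6.28% of all genes). Medians over the 180 genes were -0.05 and -0.01 for genotype and -0.05 and 0.01 for rapamycin, against 0.02, 0.02, -0.03 and -0.04 over all genes.

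Of 21 known targets of Foxo factors, 4 were called lower in untreated Atg7-/- cells, against 1.39% of all genes, and none higher. The 21 had a median of -0.34 against 0.02 over all genes. Txnip, an inhibitor of thioredoxin and of glucose uptake, was lower by 0.89 (limma adjusted p = 0.0043), Ccr7, the receptor that guides T cells into lymph nodes, by 0.82 (adjusted p = 0.000786), and Irs2, an adaptor of insulin receptors, by 0.68 (adjusted p = 0.0061). Ccr7 ran from 10.63 to 10.67 in untreated Atg7+/- arrays and from 9.72 to 9.93 in untreated Atg7-/- arrays. Between genotypes under rapamycin 4 of the 21 were lower in Atg7-/- cells and 1 higher, against 3.24% of all genes called. The median there was -0.23 against 0.02 over all genes. Ccng2 and Irs2 were each lower by 0.62 (adjusted p = 0.00681 and 0.0158) and Bcl6 by 0.57 (adjusted p = 0.0485), calls that some alternatives lost. Rapamycin raised 4 and lowered 2 of the 21 in Atg7+/- cells, where 14.1% of all genes were called. It raised 6 and lowered 4 in Atg7-/- cells, where 20% were called. Txnip was higher by 0.96 and 1.32 in the 2 genotypes (adjusted p = 0.000895 and 3.12e-05). Pink1, a kinase of mitochondrial quality control, was higher by 0.69 and 0.77 (adjusted p = 0.00643 and 0.0019). Ccng2, an atypical cyclin of resting cells, was higher by 0.76 in Atg7+/- cells (adjusted p = 0.00027). Its mean also rose in Atg7-/- cells, from 6.20 untreated to 6.94 with rapamycin. Fbxo32, a ubiquitin ligase subunit, was higher by 1.00 in Atg7-/- cells (adjusted p = 0.000257).

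Regulators of Foxo and kin of Klf2 held few calls between genotypes, as did all genes. Of 14 genes of the Foxo family and its upstream control none was called between genotypes, with or without rapamycin (limma, smallest adjusted p = 0.0533 and 0.104). Mapkap1, a subunit of mTOR complex 2, rose with rapamycin by 0.48 in Atg7+/- and 0.57 in Atg7-/- cells (adjusted p = 0.000778 and 0.000114). Sirt1, a deacetylase of Foxo proteins, rose by 0.48 in Atg7-/- cells (adjusted p = 0.00103), and Akt1 and Foxo6 fell by 0.43 and 0.46 in Atg7+/- cells (adjusted p = 0.00407 and 0.00571). Akt1 also had a lower mean with rapamycin in Atg7-/- cells, 7.48 against 7.83 untreated. Among 19 Klf family and partner genes, 3 rose and 1 fell in Atg7+/- cells and 5 rose and 1 fell in Atg7-/- cells, where 14.1% and 20% of all genes were called. Between genotypes none of the 19 was called without rapamycin (smallest adjusted p = 0.0543), and with it Klf4 fell by 1.26 and Klf10 fell by 0.55 in Atg7-/- cells (adjusted p = 0.0109 and 0.0315), calls that some alternatives lost. Map2k5, the kinase above Erk5 and Mef2 in the route that induces Klf2, rose by 0.51 and 0.66 (adjusted p = 0.0139 and 0.0017), and Klf7 by 0.49 and 0.65 (adjusted p = 0.0148 and 0.00168).

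Of 21 other quiescence factors, 2 fell in untreated Atg7-/- cells, among them Btg1, an antiproliferative partner of mRNA deadenylases, by 0.56 (limma adjusted p = 0.00695). Rapamycin raised 3 and lowered 4 in Atg7+/- cells and raised 4 and lowered 3 in Atg7-/- cells, so the list did not move one way. The shares called over all genes were 14.1% and 20%. Myb rose by 0.93 and 0.78 (adjusted p = 4.71e-05 and 0.000117), whereas Runx1, a lineage factor, fell by 0.68 and 0.60 (adjusted p = 0.00152 and 0.00224). Satb1, a chromatin organiser that also stands in the marker list of conventional CD4 T cells, rose by 0.50 in Atg7-/- cells (adjusted p = 0.0102), and Slfn2 fell by 0.47 in Atg7+/- cells (adjusted p = 0.00108).

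Downstream of Il7r, none of 14 receptor and signal genes was called between genotypes (limma, smallest adjusted p = 0.289 without and 0.0813 with rapamycin). Rapamycin raised 2 and lowered 1 in Atg7+/- cells and raised 3 and lowered 3 in Atg7-/- cells (all genes: 14.1% and 20% called). The survival gene Bcl2 rose by 0.59 and 0.52 (adjusted p = 0.00401 and 0.00557), its relative Mcl1 by 0.46 in Atg7+/- cells (adjusted p = 0.0012), and Socs2, an inhibitor of cytokine signalling, by 0.88 in Atg7-/- cells (adjusted p = 0.00685). Around Lef1, none of 18 Wnt pathway genes was called between genotypes (smallest adjusted p = 0.188 and 0.136), and 3 and 2 were called with rapamycin. Apc, a scaffold for beta-catenin destruction, rose by 0.44 in Atg7+/- cells (adjusted p = 0.00997), and Pygo2, a Wnt co-activator, fell by 0.67 in Atg7-/- cells (adjusted p = 0.0123). Pygo2 also fell by 0.57 in Atg7+/- cells (adjusted p = 0.0392), a call that some alternatives lost.

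The calls among partners and targets of Bach2 had the opposite sign to the differences of Bach2 itself. The Bach2 difference between genotypes was not called, and a link of Bach2 to these genes was not tested. In untreated Atg7-/- cells 2 of 15 rose and none fell, against 3.14% of all genes called in either direction. The list as a whole did not shift between genotypes. Without rapamycin its median was 0.00 against 0.02 over all genes, with 8 genes above 0 and 7 below. With rapamycin it was 0.02 against 0.02, with 9 above and 6 below. The opposite sign between untreated genotypes thus rests on those 2 calls. Batf, an AP-1 factor of effector Treg cells, was higher by 0.60 (limma adjusted p = 0.0088). Under rapamycin Batf was higher in Atg7-/- cells by 0.59 (adjusted p = 0.0144), a call that some alternatives lost. Prdm1, which encodes the effector regulator Blimp-1 and is a gene Bach2 represses, was higher by 0.68 in untreated Atg7-/- cells (adjusted p = 0.0141). Without the fourth untreated Atg7+/- array it was higher by 0.61 and not called (adjusted p = 0.0528, the highest of its alternatives). Rapamycin lowered 5 and raised none of the 15 in each genotype, where 14.1% and 20% of all genes were called. Medians were -0.37 and -0.25 against -0.03 and -0.04 over all genes. Prdm1 fell by 0.90 in Atg7-/- cells (adjusted p = 0.000363), from 7.54 to 7.87 in untreated arrays to 6.36 to 7.16 in rapamycin arrays. Mafk, a small Maf partner of Bach proteins, fell by 0.46 in Atg7+/- cells (adjusted p = 0.00325).

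Among 18 PI3 kinase subunits and antagonists, Pik3r1, the regulatory subunit p85 alpha, fell by 0.69 in untreated Atg7-/- cells (limma adjusted p = 0.00078). Its arrays ran from 9.02 to 9.16 in Atg7+/- and from 8.30 to 8.52 in Atg7-/- cells. Under rapamycin Pik3r1 was lower in Atg7-/- cells by 0.67 as well (adjusted p = 0.00249), a call lost when only the compared groups were fitted. Rapamycin raised 3 of the 18 and lowered 3 in Atg7+/- cells, where 14.1% of all genes were called. In Atg7-/- cells, where 20% were called, it raised 3 and lowered 6. Pik3cg, a catalytic subunit, fell by 0.81 and 1.03 (adjusted p = 0.00297 and 0.000258), and the lipid phosphatase gene Inpp5d, which opposes the kinase, fell by 0.61 and 0.74 (adjusted p = 0.00027 and 2.89e-05). Inpp4b, a further lipid phosphatase, rose by 0.63 and 0.68 (adjusted p = 0.00372 and 0.00139).

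Around Sesn1, 1 of 20 sestrin and GATOR genes rose and 1 fell in untreated Atg7-/- cells. Wdr59, a GATOR2 subunit, was higher by 0.46 (limma adjusted p = 0.0032). Rapamycin lowered 4 and raised none in Atg7+/- cells and lowered 5 and raised 2 in Atg7-/- cells (all genes: 14.1% and 20% called). Sesn2, the paralogue of Sesn1, fell by 0.59 in Atg7+/- cells (adjusted p = 0.0108), where the Sesn1 difference was -0.00. Sesn2 also fell by 0.48 in Atg7-/- cells (adjusted p = 0.023), a call that some alternatives lost. Castor1, an arginine sensor of the same pathway, fell by 0.67 in Atg7-/- cells (adjusted p = 0.0126). In Atg7+/- cells it fell by 0.67 as well (adjusted p = 0.0182), a call that some alternatives lost. Around Klhl24, 1 of 21 adaptor and cullin 3 genes was called lower with rapamycin in Atg7+/- cells, Klhl42 at -0.59 (adjusted p = 0.00152), and 2 were called higher in Atg7-/- cells, Klhl22 by 0.60 and Klhl8 by 0.52 (adjusted p = 0.00125 and 0.0101). None of these reached the size of the Klhl24 differences.

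Likeness was described by Pearson's r over the 16 arrays, which share their groups, and by r of the deviations from group means, which removes the differences between groups; predicted, microRNA and olfactory receptor genes and the other members were left out. Klhl24 was most like Jmy (r = 0.98, deviations 0.74), Atg13 (0.98 and 0.74), which encodes part of the Ulk1 autophagy kinase complex, and Paip2 (0.98 and 0.46). Bach2 was most like Fam169b (0.98 and 0.89), Casc1 (0.97 and 0.84) and Etfrf1 (0.96 and 0.81). Klf2 was most like Jrkl (0.93 and 0.72), Ttc3 (0.93 and 0.76) and Dennd6a (0.91 and 0.57), and Il7r most like Bbs2 (0.91 and 0.60), Oas1e (0.90 and 0.56) and Slamf6 (0.90 and 0.61). For Foxo1 the nearest were Slain1 (0.92 and 0.93), the interleukin-4 receptor gene Il4ra (0.91 for each) and Sesn3 (0.90 and 0.88), with deviations as alike as the values. Lef1, Sesn1 and Pik3ip1 had looser neighbours, led by Tnfrsf11b (0.87 and 0.86), Cdk5rap2 (0.87 and 0.79) and Stx19 (0.85 and 0.71).

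Within the set, Klf2 and Klhl24 followed each other over the arrays (r = 0.90, deviations 0.63), as did Klhl24 and Sesn1 (0.71 and 0.69). Il7r and Klhl24 (0.84 and 0.07) and Bach2 and Klhl24 (0.86 and -0.22) were alike in their group means but not from array to array within groups. Foxo1 and Lef1 showed the reverse, with r of 0.11 over all values and 0.65 in the deviations. The set is therefore not 1 block of genes that move together array by array.

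**Figure D4:**
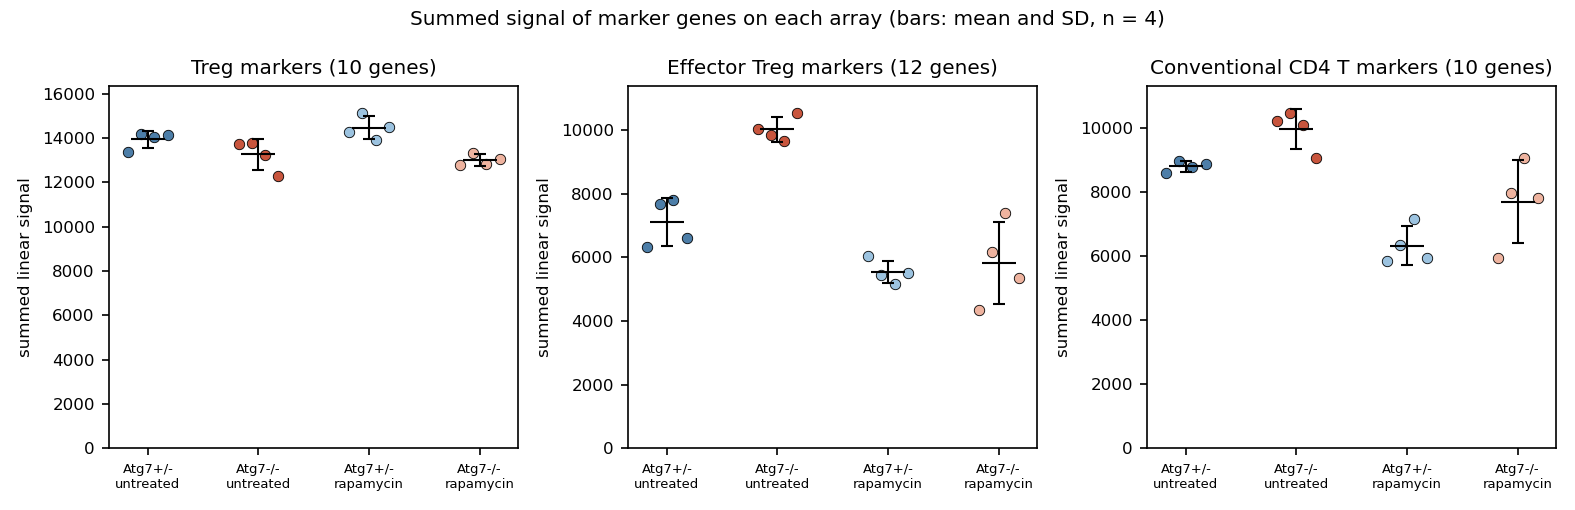
Summed linear signal of the marker genes of Treg cells, effector Treg cells and conventional CD4 T cells on each array, by group, with mean and SD of 4 arrays; axes start at 0. The effector Treg sum is highest in untreated Atg7-/- arrays, at 9665 to 10540, the group with the lowest mean for each gene of the set but Foxo1.

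Markers of cell states moved with these results. The 12 markers of effector Treg cells, all of them tested, summed to linear signals of 6320 to 7799 in untreated Atg7+/- arrays and 9665 to 10540 in untreated Atg7-/- arrays. With rapamycin the sums were 5178 to 6035 in Atg7+/- and 4358 to 7405 in Atg7-/- cells. Of the 12, 6 rose and none fell in untreated Atg7-/- cells, against 3.14% of all genes called in either direction. Gzmb, encoding the cytotoxic protease granzyme B, was higher by 1.65 (limma adjusted p = 0.00492) and Lgals1, encoding galectin 1, by 1.12 (adjusted p = 0.00308). Rapamycin lowered 7 of the 12 in Atg7+/- and 10 in Atg7-/- cells, against 14.1% and 20% of all genes called in either direction. In Atg7-/- cells Gzmb fell by 2.92 (adjusted p = 7.41e-06) and the chemokine receptor gene Ccr2 fell by 1.41 (adjusted p = 0.00118). Prdm1 stands in this list and in that of Bach2. Klrg1, another marker of the list, had differences of -0.52 between the untreated genotypes (adjusted p = 0.317) and -1.61 with rapamycin in Atg7-/- cells (adjusted p = 0.00044). The effector sum was thus highest in the group where 7 of the 8 genes had their lowest mean, all but Foxo1, and its part in the results was not tested. The 10 conventional CD4 T markers summed to 8586 to 8990 and 9075 to 10480 in untreated Atg7+/- and Atg7-/- arrays and to 5841 to 7179 and 5953 to 9060 with rapamycin, and this too was not tested. The 10 Treg markers summed to 13390 to 14190 and 12270 to 13790 in untreated Atg7+/- and Atg7-/- arrays and to 13910 to 15140 and 12800 to 13350 with rapamycin, where the genotypes did not overlap. Marker sums of some other lineages, at lower levels, differed between genotypes as well, not all in the same direction. Few of their genes were called, so a sum can rest on single genes. Between untreated genotypes 1 of 7 tested stromal markers and 1 of 7 CD8 T and NK cell markers were higher in Atg7-/- cells. None of 7 neutrophil or 6 plasma cell markers was called, and 1 of 7 dendritic cell markers was lower. The median stromal difference was 0.01 against 0.02 over all genes. Stromal markers (8 of 8 on the array) summed to 317 to 333 and 398 to 459 in untreated Atg7+/- and Atg7-/- arrays and to 246 to 283 and 256 to 350 with rapamycin. CD8 T and NK cell markers (9 of 10) gave 275 to 291 and 304 to 353 untreated and 227 to 253 and 277 to 359 with rapamycin. Neutrophil markers (8 of 8) gave 142 to 224 and 226 to 273 untreated and 125 to 190 and 136 to 430 with rapamycin. Plasma cell markers (6 of 6) went the other way untreated, at 350.3 to 403.6 and 314.2 to 350. With rapamycin they gave 332 to 389 and 298 to 362. Dendritic cell markers (7 of 8) gave 310 to 347 and 324 to 342 untreated and 296 to 351 and 259 to 300 with rapamycin. Macrophage and monocyte markers (9 of 10) and erythroid markers (3 of 8) overlapped between the genotypes, with and without rapamycin. B cell markers (9 of 10) stayed between 132 and 169 in all groups. The part of these lineages in the results was not tested.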

How the data were processed

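Treg cells of 4 groups were measured on 16 arrays. The authors deposited 1 log2 signal for each probe set and array, made, per the submitters' processing notes, with RMA and Partek 6.6. The log base is not written in the file and was taken as 2, on which every fold rests. Of 41345 probe sets, 23521 had 1 symbol in GEO's platform annotation, 1814 several and 16010 were not listed. The brightest single-symbol probe set stood for each gene, and genes with a highest group mean over 3.549, the 30th percentile of all values, were tested (16760). RMA brings arrays towards a common distribution, so a global shift would show at most in part. Medians of the deposited arrays still ran from 4.41 to 4.63. No source used here gives hybridisation dates. Arrays give no read depth, and their number limits the precision.

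A linear model with a mean for each group used all 16 arrays (R 4.3.3, limma 3.58.1, lmFit, contrasts.fit, eBayes; 12 residual and 5.64 prior degrees of freedom), with 5 contrasts, two-sided tests and Benjamini-Hochberg adjustment over 16760 genes. The script was tested on simulated data. The members and gene lists were chosen with earlier results of these data known. Named are the members, Atg7 and Foxp3 as checks, and per list and two-group comparison up to 3 called genes of largest difference, else the smallest p; the text gives mainly those called in every alternative, a choice made after their values were seen, and marker genes were named likewise. Promoter windows come from RefSeq (GRCm38.p6). Same-numbered arrays of different groups did not deviate together throughout, so numbers were not used as pairs. Alternatives changed the normalization, dim-gene filter, probe set rule, variance model, array weights, replicate block, groups fitted and, in turn, each array.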

Additional observations from a re-analysis of the deposited data

Results flagged for a closer look

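None of the 8 genes had an array far from the other 3 of its group, in 32 groups examined by Dixon's ratio of gap to range. Among 256 groups of 4 arrays, those of the 8 genes and of the named pathway genes, 5 had such an array, or 1.95%, where chance alone gives about 1 in 20. Map2k5, the kinase above Erk5, read 6.77 on the third Atg7-/- rapamycin array against 7.33 to 7.39 on the other 3. That is the array that stands apart as a whole. Depdc5, a GATOR1 subunit, read 6.78 on the first array of that group against 6.92 to 6.94, and Wdr59, a GATOR2 subunit, 8.26 on the second against 8.17 on the others. Maf, which encodes a transcription factor of effector cells, read 10.23 on the fourth untreated Atg7-/- array against 9.82 to 9.88. Klhl22, a cullin 3 adaptor, read 5.15 on the third untreated Atg7+/- array against 4.95 to 4.98.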

How the results depend on the processing

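Over 25 alternatives the number of the 8 genes called kept within 1.5 times of that reported in each comparison, with 1 in the untreated genotype comparison, 0 under rapamycin, 2 to 4 for rapamycin in Atg7+/- cells and 5 to 6 in Atg7-/- cells when 1 array was left out, and no called difference changed sign. Counts over all genes moved more, and the cause was not tested. In the untreated genotype comparison 527 genes were called, 318 with arrays centred on their median, 974 with array weights and 284 to 694 with 1 array left out. There 12 pathway genes were called, and 21 with array weights. Under rapamycin the genotypes differed in 543 genes, in 350 with median centring, 820 with the stricter dim filter, 886 with trend and robust options, 20 when only the compared groups were fitted, and 95 (without the second Atg7+/- rapamycin array) to 789 with 1 array left out. Pathway genes called there were 11, then 5 with median centring, 0 with only the compared groups and 3 to 11 with 1 array left out. For rapamycin in Atg7+/- cells 2370 genes were called and 1559 to 2785 with 1 array left out, the lowest without the second rapamycin array. In Atg7-/- cells 59 pathway genes were called, and 39 with only the compared groups. The difference of rapamycin effects was called for 1 gene without the second Atg7-/- rapamycin array. The share of calls between genotypes under rapamycin that were higher in Atg7-/- cells, 58.9%, became 69.2% with quantile normalization and 72.3% with median centring, but 30% with only the compared groups, 40.1% without the third Atg7-/- rapamycin array, and 43.2% and 47.1% without the second and the first Atg7+/- rapamycin arrays, so its balance turned, and for rapamycin in Atg7+/- cells 42.7% became 31.5% with median centring. Replicate numbers were not used as pairs in the main fit. Same-numbered arrays of different groups had deviations correlated at -0.08 to 0.36 (median 0.02), with 6 of 24 pairs over 0.1. Differently numbered arrays of different groups had -0.30 to 0.24 (median -0.01), with 7 of 72 over 0.1. Among the arrays, 8 of 16 correlated best with their own number. These values do not settle whether the numbers mark a partial pairing. A replicate block gave 529, 592, 2492 and 3491 calls in the 4 comparisons, and the same numbers of the 8 genes. Pik3ip1, whose signal was dim, was called in no alternative.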
